A study of Mus musculus with 7 samples.

Results

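The 5 genes of the TAFA family, *Tafa1*, *Tafa2*, *Tafa3*, *Tafa4* and *Tafa5*, were followed in a single-nucleus RNA-seq library of cultured BB-p53n OPCs. They are 5 of the 33696 genes of the count table and were found by gene symbol. They were measured in the 8917 of 10047 cell barcodes that had 2000 to 8000 detected genes, which are called nuclei below. The family was chosen by measured values, the high levels of *Tafa1* and *Tafa2* in one cluster of these nuclei, so those levels are given as a description, without a test.

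The study followed the path from mutant OPC (oligodendrocyte progenitor cell, the glial precursor that makes oligodendrocytes) to glioma. Its labels list 7 samples, of which 3 are early-stage tumors, 3 are late-stage tumors and 1 is the cultured OPCs. The tumor samples were not analysed here. BB-p53n OPCs were primary mouse OPCs of *Trp53*fl/fl C57BL/6 pups of either sex at postnatal day 5–7, selected with an antibody to CD140a (PDGFRα) and transduced in culture with a PDGFB-IRES-CRE retrovirus, which deletes *Trp53* and overexpresses PDGFB. The whole culture was made this way, deletion and virus were not measured per nucleus, and OPCs without them were not analysed here. With 1 library there is no replicate, so the intervals below are 95% intervals that cover counting error only, and differences between groups of nuclei describe this culture.

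The kept nuclei held 141138093 UMIs (unique molecular identifiers, counted RNA molecules). The median nucleus had 13771 UMIs from 4718 genes. *Trp53* had 3496 UMIs and mouse *Pdgfb* 75, but counts over whole genes do not show the deleted part of *Trp53* and the viral transcript was not analysed here. All 10 genes of an OPC marker list were detected, with a summed level of 5415 CPM (UMIs of a gene per 1000000 UMIs). Marker lists of other cell types summed to 537 CPM for astrocytes, 334 CPM for neurons, 164 CPM for oligodendrocytes, 24.4 CPM for microglia, 11.2 CPM for endothelial cells and 0.588 CPM for fibroblasts or pericytes.

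TAFA genes (formerly *Fam19a*) encode small secreted proteins with a conserved pattern of cysteines, distantly related to chemokines, and are best known from the brain. Several of them bind neurexins, the presynaptic adhesion proteins, and G protein-coupled receptors have been described as partners of some, such as CMKLR2 (formerly GPR1) for TAFA1, a formyl peptide receptor for TAFA4 and S1PR2 for TAFA5. Counts of nuclear RNA say nothing about whether a protein was made or secreted.

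In GRCm39, the build of the count table, *Tafa1* lies on chromosome 6 from 96090088 to 96635542 on the plus strand, and spans 545 kb. *Tafa4* lies on the same chromosome from 96808164 to 97057174 on the minus strand, spans 249 kb and is 173 kb away from *Tafa1*. *Tafa2* is on chromosome 10 from 123099901 to 123577979 (plus strand, 478 kb), *Tafa5* on chromosome 15 from 87428390 to 87643565 (plus strand, 215 kb) and *Tafa3* on chromosome 3 from 104674711 to 104689156 (minus strand, 14.4 kb). No other gene of the count table overlapped a member on the same strand. *Nup50l* overlapped *Tafa1* and *Ppm1j* overlapped *Tafa3* on the opposite strand.

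The promoters of the members differed in base composition. They are shown for the 4 genes with measurable levels, as RefSeq gives them for GRCm38.p6, 300 bases each from 250 before to 50 after the start, read along the gene's strand. Capitals mark every match to the E-box motif CANNTG, which reads the same on both strands. The windows are chr6:96112904-96113203 for *Tafa1*, chr10:123263826-123264125 for *Tafa2*, chr6:97060362-97060661 for *Tafa4* and chr15:87544049-87544348 for the first of 2 listed starts of *Tafa5*.
Tafa1: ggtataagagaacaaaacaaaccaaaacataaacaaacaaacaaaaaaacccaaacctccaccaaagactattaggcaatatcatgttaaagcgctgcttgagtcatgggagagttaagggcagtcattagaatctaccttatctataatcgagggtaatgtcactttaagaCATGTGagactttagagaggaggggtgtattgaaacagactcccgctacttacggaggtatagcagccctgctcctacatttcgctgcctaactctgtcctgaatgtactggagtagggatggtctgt
Tafa2: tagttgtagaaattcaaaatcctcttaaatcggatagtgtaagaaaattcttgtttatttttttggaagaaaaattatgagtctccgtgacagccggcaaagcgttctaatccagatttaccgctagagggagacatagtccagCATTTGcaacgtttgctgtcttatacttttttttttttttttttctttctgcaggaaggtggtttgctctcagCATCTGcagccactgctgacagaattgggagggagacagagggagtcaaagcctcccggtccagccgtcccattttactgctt
Tafa4: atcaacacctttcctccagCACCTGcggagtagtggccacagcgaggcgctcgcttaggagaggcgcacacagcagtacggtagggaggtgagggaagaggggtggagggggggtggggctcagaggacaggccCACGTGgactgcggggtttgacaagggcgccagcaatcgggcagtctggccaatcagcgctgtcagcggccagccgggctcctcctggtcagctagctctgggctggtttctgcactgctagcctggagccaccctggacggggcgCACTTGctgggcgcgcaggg
Tafa5: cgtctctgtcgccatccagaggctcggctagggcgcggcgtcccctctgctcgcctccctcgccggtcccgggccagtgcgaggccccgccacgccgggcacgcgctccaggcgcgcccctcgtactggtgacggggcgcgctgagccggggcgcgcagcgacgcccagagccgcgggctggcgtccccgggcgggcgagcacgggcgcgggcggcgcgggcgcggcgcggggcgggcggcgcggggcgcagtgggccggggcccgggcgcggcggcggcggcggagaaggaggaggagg

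The *Tafa1* and *Tafa2* windows were AT-rich, with 42.0% and 41.7% G and C and 5 and 8 CG dinucleotides. The *Tafa4* window held 66.7% G and C and 17 CG dinucleotides. The 2 *Tafa5* windows held 83.7% and 81.0% G and C and 56 and 47 CG dinucleotides. Over 32851 mouse promoter windows of this length the medians were 52.7% and 7. *Tafa1* had 1 match to CANNTG, *Tafa2* had 2, *Tafa4* had 3 and both *Tafa5* windows had 0, while 72.3% of all windows held at least 1. None of the windows held AACAAT or TATAAA on either strand, which 10.7% and 13.6% of all windows did.

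*Tafa5* was the highest and *Tafa3* the lowest member in these nuclei, in total and per length. *Tafa5* had 43090 UMIs, or 305 CPM (302–308), and 490 of the 25898 detected genes had more UMIs. *Tafa4* had 30740 UMIs, or 218 CPM (215–220), and *Tafa2* had 11059 UMIs, or 78.4 CPM (76.9–79.8). *Tafa1* had 6699 UMIs, or 47.5 CPM (46.3–48.6). *Tafa3* had 13 UMIs in 11 nuclei, or 0.0921 CPM (0.0490–0.158), so it was hardly detectable at this depth. Restricted to 1954 nuclei whose mitochondrial UMIs were 5% or less, *Tafa1* and *Tafa2* were at 87.3 and 138 CPM, above their levels over all nuclei, and the part of the mitochondrial share in this was not tested.

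Per kb of gene span the levels were 1.42 CPM for *Tafa5*, 0.875 CPM for *Tafa4*, 0.164 CPM for *Tafa2*, 0.0870 CPM for *Tafa1* and 0.00638 CPM for *Tafa3*. Per kb of merged exons they were 68.3, 32.7, 10.6, 8.41 and 0.0179 CPM in that order. Nuclear RNA includes unspliced transcripts, so both scales are given. The order was the same on both, and neighbours in it were apart by more than counting error on both scales.

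The members differed more in how their UMIs were spread over nuclei. To compare nuclei of unequal depth, each was thinned at random to 5000 UMIs, so that 8760 nuclei remained and 157 with fewer UMIs did not. *Tafa5* was then found in 74.1% of the nuclei (73.1–75.0), *Tafa4* in 45.3% (44.2–46.3), *Tafa2* in 18.7% (17.9–19.6), *Tafa1* in 13.5% (12.8–14.2) and *Tafa3* in 0.0342% (0.00706–0.100). Without thinning the shares were 92.5%, 62.4%, 29.9%, 22.2% and 0.123%.

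If every nucleus had the same rate, the thinned levels would have put *Tafa5* in 77.2% of the nuclei, close to the share seen. The same calculation gave 62.7% for *Tafa4*, 36.5% for *Tafa2* and 23.5% for *Tafa1*, all above the shares seen. The UMIs of *Tafa1* and *Tafa2* were concentrated in few nuclei. The tenth of nuclei richest in the gene held 87.0% of the thinned UMIs of *Tafa1* and 80.8% of those of *Tafa2*, against 45.3% for *Tafa4* and 28.4% for *Tafa5*. At least 2 UMIs were found in 42.5% of the nuclei for *Tafa5*, 25.1% for *Tafa4*, 9.85% for *Tafa2* and 6.10% for *Tafa1*. At least 5 UMIs were found in 2.67%, 3.60%, 2.18% and 0.970%, so *Tafa4* had more nuclei with many UMIs than *Tafa5* although its level was lower. Single nuclei reached 26 UMIs of *Tafa2*, 13 of *Tafa1*, 13 of *Tafa4* and 12 of *Tafa5* after thinning.

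**Figure D1:**
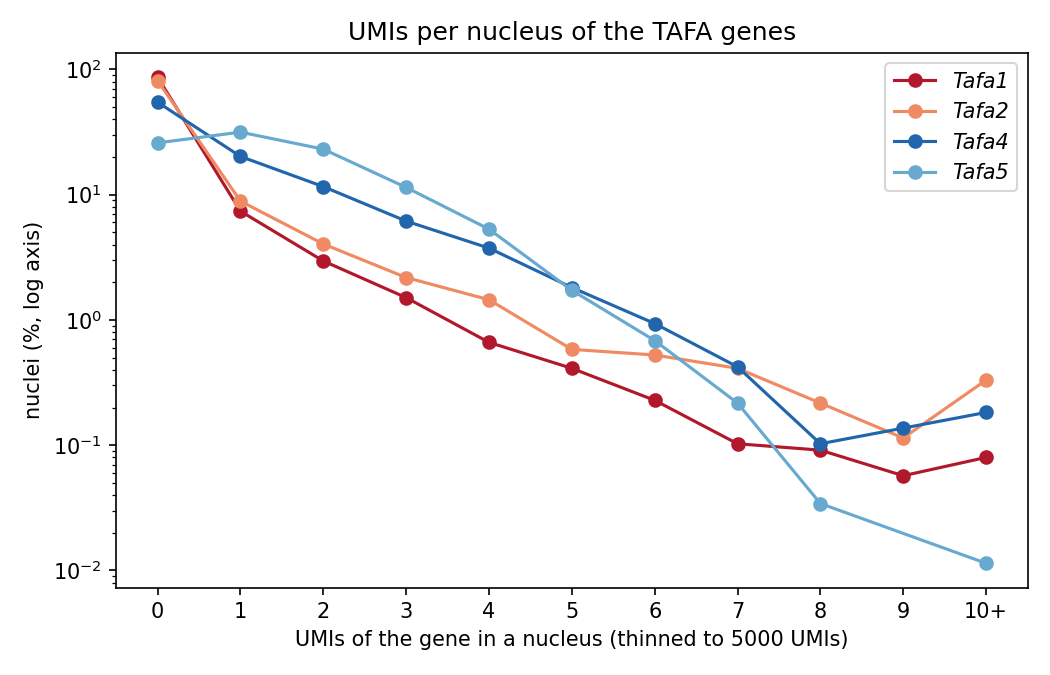
Percent of the 8760 thinned nuclei (y axis, log scale) with a given number of UMIs of each gene (x axis, the last bin holding 10 or more). *Tafa5* had its peak at 1 UMI, in 31.6% of the nuclei, whereas 86.5% of the nuclei had no *Tafa1* UMI and 0.331% had 10 or more of *Tafa2*.

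The 8917 nuclei were clustered with the Seurat settings of the study's methods and fell into 8 clusters, numbered 0 to 7 from largest to smallest. The study lists fewer nuclei after filtering than its stated cutoffs on detected genes leave. A limit of 5% mitochondrial UMIs, which its methods do not name, left 1954 nuclei, which equals the number listed there, and these fell into 5 clusters. Values for them are given beside some levels, cluster ratios and co-detection ratios, since which nuclei the study kept is not known from the files. The results by sex-linked transcripts, by phase and by correlation were not computed in them. The numbers are those of this re-derived clustering and not of the study's own clusters. *Tafa1*, *Tafa2*, *Tafa3* and *Tafa4* were among the 3000 genes used to cluster, so levels across clusters are a description. *Tafa3* fell below the 100 UMIs needed for a ratio between groups of nuclei, which 14531 genes and 4 of the 5 members reached.

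*Tafa1* and *Tafa2* stood out in cluster 3, which held 1338 nuclei. *Tafa1* was at 277 CPM (269–285) there. In clusters 5, 6, 2, 0, 4, 7 and 1 it was at 39.5, 20.8, 14.8, 13.6, 7.56, 6.47 and 6.14 CPM, in that order. The intervals of clusters 2 and 0, of 4 and 7, and of 7 and 1 overlapped, and the other neighbours in this order were apart. *Tafa1* was thus 16.5 times as high in cluster 3 as in all other nuclei (15.6–17.3). The ratio was smaller under other settings, 8.22 for the highest cluster of the 1954 nuclei (463 nuclei at 276 CPM) and 9.30 for that with 20 neighbors (511 nuclei at 320 CPM).

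*Tafa2* was at 419 CPM (409–429) in cluster 3. In clusters 5, 0, 6, 2, 7, 4 and 1 it was at 64.2, 42.3, 30.1, 29.7, 28.2, 15.6 and 10.2 CPM, in that order. The intervals of clusters 6, 2 and 7 overlapped. The level in cluster 3 was 12.7 times that in all other nuclei (12.2–13.2), and the highest cluster of the 1954 nuclei had a ratio of 7.72, at 427 CPM. Cluster 3 held 15.0% of the nuclei, 68.7% of the UMIs of *Tafa1* and 62.9% of the UMIs of *Tafa2*.

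*Tafa4*, which sensory neurons make and which is described to dampen pain, followed another order. It was highest in cluster 2, at 406 CPM (397–415), and at 340, 327, 252, 237 and 223 CPM in clusters 6, 4, 3, 7 and 5. It was low in cluster 0, at 77.4 CPM (74.1–80.9), and lowest in cluster 1, at 12.7 CPM (11.2–14.3). Clusters 6 and 4, 3 and 7, and 7 and 5 overlapped. *Tafa4* was 2.18 times as high in cluster 2 as in all other nuclei (2.12–2.24), and in cluster 1 it was at 0.0496 of its level elsewhere (0.0439–0.0557).

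*Tafa5* was the most even member. It ran from 268 to 382 CPM in 7 clusters, with its peak in cluster 2 at 1.30 times the level elsewhere (1.27–1.34). It was lowest in cluster 1, at 160 CPM (155–165), or 0.481 of the level elsewhere (0.465–0.498). Clusters 6 and 0, 0 and 4, 5 and 3, and 3 and 7 overlapped.

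*Tafa3* had at most 5 UMIs in any cluster. It had 0 UMIs in clusters 6 and 7, which allows levels of up to 0.252 and 1.39 CPM, taking 3 counts as the limit.

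**Figure D2:**
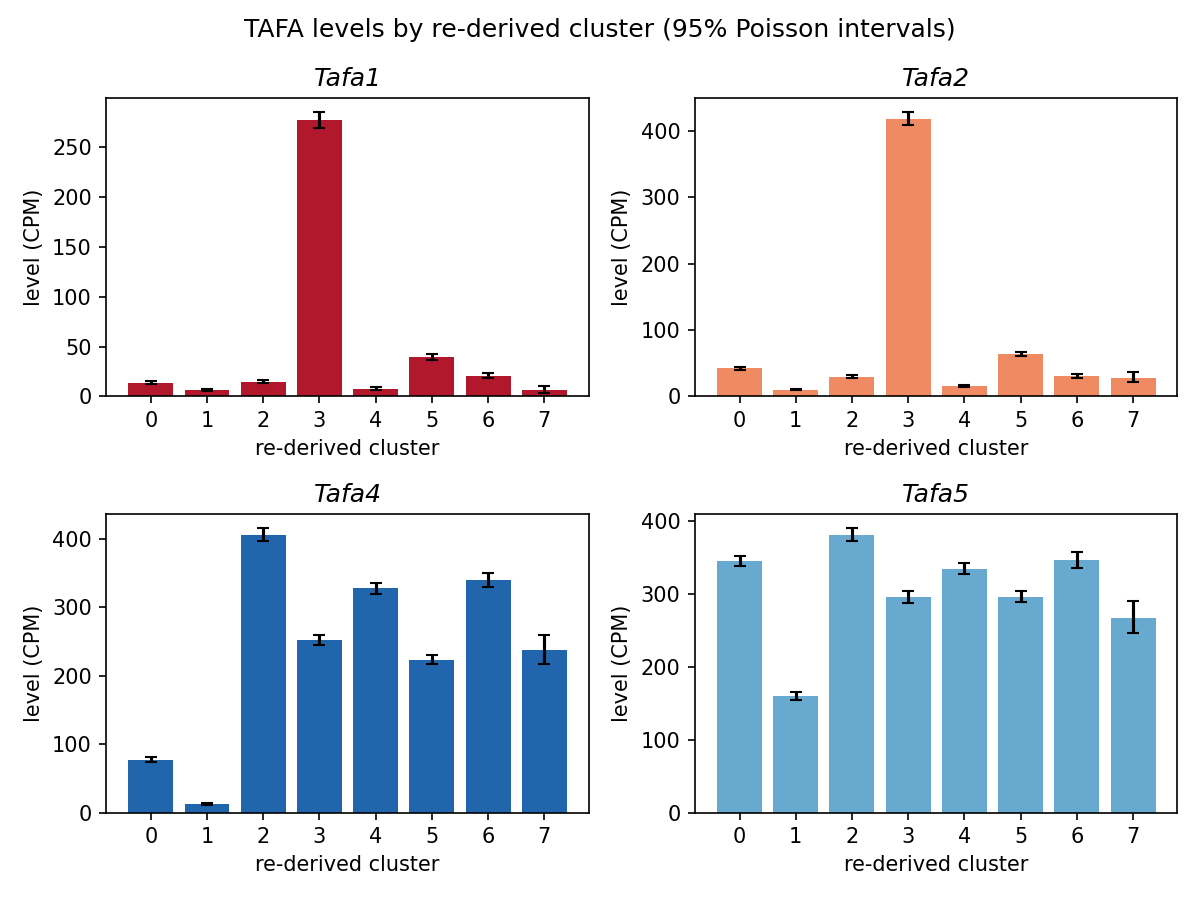
Level in CPM (y axis) of 4 TAFA genes in the 8 re-derived clusters (x axis), with exact 95% Poisson intervals as error bars. *Tafa1* and *Tafa2* rise to 277 and 419 CPM in cluster 3, *Tafa4* is at 12.7 CPM in cluster 1 and 77.4 CPM in cluster 0, and *Tafa5* lies between 160 and 382 CPM in every cluster.

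Counted at a ratio of at least 2 (higher) or at most 0.5 (lower) to all other nuclei, 2 of the 4 members were higher in cluster 3 (*Tafa1* and *Tafa2*), as were 4.34% of the 14531 genes. In cluster 1 all 4 members were lower, as were 12.1% of the genes. In cluster 0 *Tafa1*, *Tafa2* and *Tafa4* were lower, as were 5.53% of the genes, and in cluster 2 *Tafa4* was higher, as were 1.13%. These levels led to the choice of members or entered the clustering, so nothing is read from the counts. The median log2 ratio of the 4 members was 1.95 in cluster 3 and -3.16 in cluster 1, against -0.01 and 0.15 over all genes counted. Nothing is read from these medians either. That of cluster 3 lies between unlike ratios, 16.5 and 12.7 for *Tafa1* and *Tafa2* and 1.18 and 0.966 for *Tafa4* and *Tafa5*. With the TAFA genes left out of the clustering, the cluster highest in *Tafa1* and *Tafa2* shared 1336 of its 1345 nuclei with cluster 3.

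The share of nuclei that carried each member moved with these levels. In cluster 3, *Tafa1* was found in 56.6% (53.9–59.3) and *Tafa2* in 69.7% (67.1–72.2) of the thinned nuclei, and without thinning in 73.5% and 83.3%. No cell type known to lack these genes was in the library, so the lowest share over clusters is given beside them. It is not a limit on free RNA, which was not measured and may differ between clusters. The lowest share was 1.68% for *Tafa1* in cluster 7 (0.347–4.82, 179 nuclei). In cluster 1 it was 3.05% for *Tafa2*, 2.76% for *Tafa4* and 51.5% for *Tafa5*. Median depths before thinning were 10005.5 UMIs in cluster 3, 10151 in cluster 7 and 11623 in cluster 1. *Tafa4* was carried by 78.2% of the nuclei of cluster 2, 60.6% of cluster 3 and 21.5% of cluster 0. The UMIs of *Tafa1* were 0.230 (cluster 7) to 0.693 (cluster 6) times those of *Tafa2*. The UMIs of *Tafa4* were 0.0793 times those of *Tafa5* in cluster 1, 0.224 in cluster 0, and 0.753 to 1.06 in the other 6, so neither pair kept 1 ratio over the clusters.

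Several other measures moved with cluster 3. It had the lowest median share of mitochondrial UMIs, 5.16%, against 5.34% to 7.22% in the other clusters, and the lowest median depth. The neuron marker list summed to 690 CPM in cluster 3. It was higher in cluster 7, at 1059 CPM, and no more than 402 CPM in the remaining 6, with a minimum of 144 CPM. Most of the sum in cluster 3 came from *Nrxn3* (430 CPM) and *Syt1* (226 CPM), and 2 of the 10 listed genes, *Slc17a6* and *Stmn2*, were at 0. The OPC list was at 6261 CPM in cluster 3, but at 1813 CPM in cluster 1, where the members were low. In cluster 3 it was mostly *Lhfpl3* (2633 CPM) and *Ptprz1* (1945 CPM). *Pdgfra* (144 against 256 CPM), *Sox10* (57.2 against 87.3 CPM), *Olig1* and *Gpr17* were below their levels over all nuclei there, and the other listed genes above. In cluster 1 all genes of the OPC list were below their levels over all nuclei, but by unlike amounts. *Pdgfra* was at 19.4 CPM and *Sox10* at 5.87 CPM there. *Olig1* was at 520 against 618 CPM, *Olig2* at 212 against 293 CPM and *Ptprz1* at 890 against 1895 CPM. The astrocyte list was at 790 CPM in cluster 3 and 497 CPM in cluster 1. In cluster 3 it was mostly *Slc1a3* (423 CPM) and *Aldoc* (288 CPM), with *Aqp4* and *Gja1* at 0. The part of these measures in the TAFA levels was not tested.

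A finer clustering with 20 neighbors, in place of 200, put most of cluster 3 into 4 groups. In the largest, with 511 nuclei, *Tafa1* was at 320 CPM (306–334) and *Tafa2* at 409 CPM (393–425), and 74.6% of its nuclei were called G2/M. In the next, with 479 nuclei and 1.46% called G2/M, *Tafa1* was at 316 CPM (301–332) and *Tafa2* at 541 CPM (521–561). The intervals of *Tafa1* overlapped between these groups and those of *Tafa2* did not.

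The other 2 groups were smaller. In one of 137 nuclei *Tafa1* and *Tafa2* were both lower, at 132 CPM (112–154) and 147 CPM (126–171), whereas *Tafa4* was at 377 CPM (343–414) and the neuron list at 227 CPM. In one of 118 nuclei *Tafa1* was at 171 CPM (149–197) and *Tafa2* at 491 CPM (451–532), a ratio of 0.350 against 0.585 to 0.897 in the other 3. *Tafa5* stayed between 277 and 326 CPM in the 4 groups.

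Within the low cluster 1 the members were not equally low. Its larger fine group of 1015 nuclei had 52 UMIs of *Tafa4*, or 3.74 CPM (2.80–4.91), and 1956 UMIs of *Tafa5*, or 141 CPM (135–147). *Tafa1* was at 4.32 CPM and *Tafa2* at 6.41 CPM in the same nuclei. *Tafa5* was carried by 47.1% of them, and *Tafa4* by 1.70%.

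Co-detection was counted for all 10 pairs in the thinned nuclei. The intervals of its ratios are those of the number of nuclei with both genes. The expected number was taken as fixed, and the intervals do not use the given shares of each gene. The pair *Tafa1* and *Tafa2* shared 634 nuclei, where the product of their shares gave 221, a ratio of 2.87 (2.65–3.09). *Tafa2* was found in 53.7% of the nuclei with *Tafa1* and in 13.3% of those without it. *Tafa1* was found in 38.6% of the nuclei with *Tafa2* and in 7.68% of those without it.

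Among the other pairs, the 3 with *Tafa4* were above the product of their shares by less. The ratio was 1.27 (1.18–1.36) for *Tafa1* and *Tafa4*, 1.21 (1.14–1.29) for *Tafa2* and *Tafa4*, and 1.07 (1.04–1.10) for *Tafa4* and *Tafa5*. The intervals of the other 2 pairs held 1. An interval of this kind that holds 1 does not show that an excess was absent. For *Tafa1* and *Tafa5* it was 1.02 (0.954–1.08) and for *Tafa2* and *Tafa5* 1.03 (0.976–1.08). The 4 pairs with *Tafa3* had at most 2 nuclei each, too few for a ratio.

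The excess of nuclei with both *Tafa1* and *Tafa2* was smaller within clusters, which were made with these genes among others. When the expected number was summed over the 8 clusters the ratio was 1.11, and the other 5 pairs were at 0.991 to 1.01. When it was summed over 10 depth classes it was still 2.59, and in the 1954 nuclei it was 2.12. In cluster 3, 742 of 1310 nuclei had *Tafa1*, 913 had *Tafa2* and 545 had both, where 517 were expected, a ratio of 1.05 (0.986–1.12). Whether this is an excess was not tested, and the interval does not decide it. Cluster 5 had 46 nuclei with both where 24.6 were expected, a ratio of 1.87 (1.38–2.47). Cluster 5 was the deepest, with a median of 30276 UMIs, and held 65.9% of its nuclei among the 8% with the highest doublet scores. Over all nuclei the ratio was 2.99 without those 8%.

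**Figure D3:**
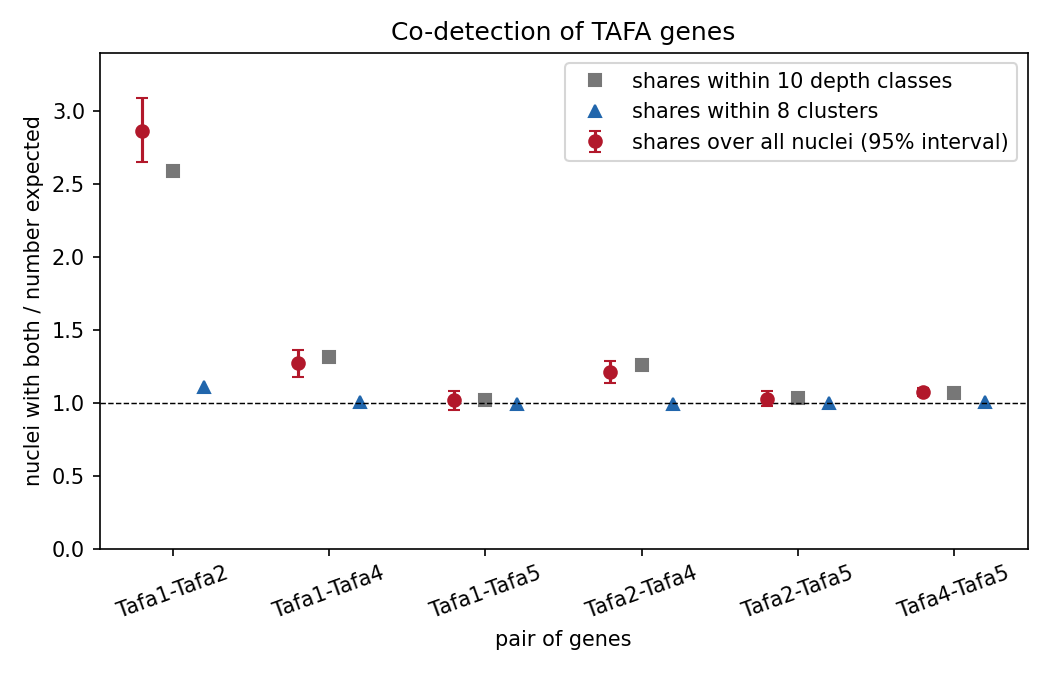
Number of nuclei with both genes of a pair over the number expected (y axis) for 6 pairs (x axis), with the expected number from the shares over all nuclei (circles, 95% intervals), within 10 depth classes (squares) and within the 8 clusters (triangles). For *Tafa1* and *Tafa2* the ratio is 2.87 over all nuclei, 2.59 within depth classes and 1.11 within clusters. The intervals are those of the number of nuclei with both genes, with the expected number taken as fixed.

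Nuclei carried from 0 to 4 of the 4 measurable members. None was found in 13.9% of the nuclei, 1 in 37.8%, 2 in 34.3%, 3 in 10.9% and all 4 in 3.11%. The most frequent single combinations were *Tafa5* alone, in 2592 nuclei, and *Tafa4* with *Tafa5*, in 2239 nuclei. All 4 together were found in 272 nuclei, or 3.11%, where independent shares gave 0.847%, and 86.0% of those nuclei were in cluster 3. In cluster 3, 17.9% of the nuclei carried all 4 and 1.22% carried none. In cluster 1, 45.3% carried none and 0.117% carried all 4. *Tafa1* with *Tafa2* and neither of the other 2 was found in 50 nuclei, or 0.571%, where independent shares gave 0.358%. Of those nuclei, 94.0% were in cluster 3.

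**Figure D4:**
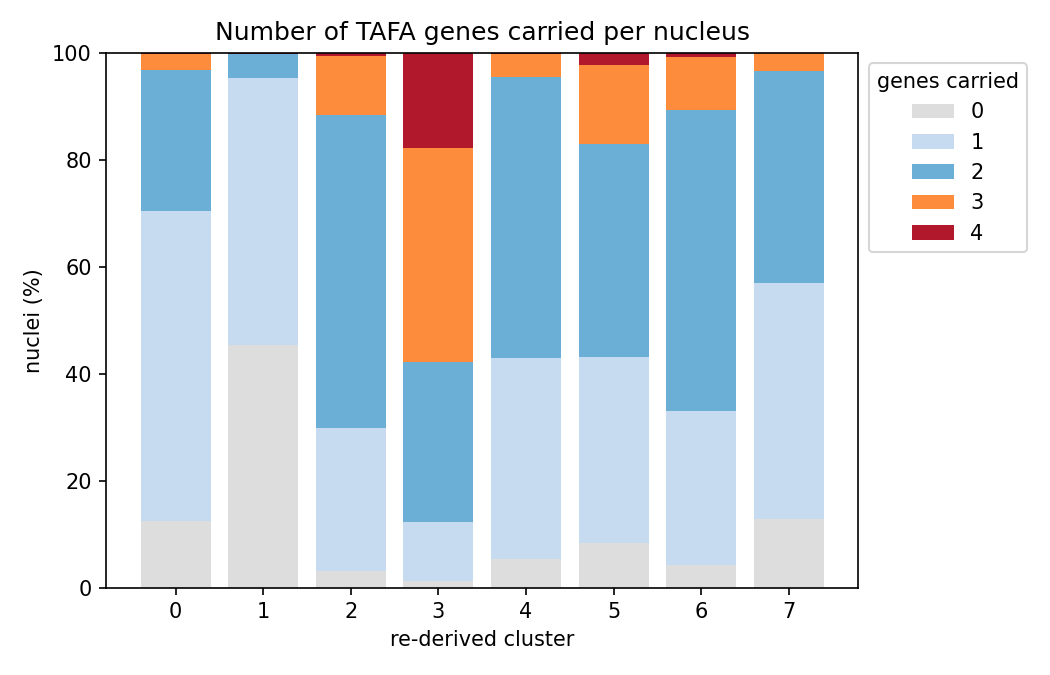
Percent of thinned nuclei (y axis) in each re-derived cluster (x axis) that carried 0 to 4 of *Tafa1*, *Tafa2*, *Tafa4* and *Tafa5* (colors). Cluster 3 has 17.9% of its nuclei with all 4 genes, and cluster 1 has 45.3% with none.

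Nuclei with both *Tafa1* and *Tafa2* differed from nuclei with neither in other ways. Of the 634 with both, 86.0% were in cluster 3, against 3.04% of the 6572 with neither. Their neuron list was at 741 CPM against 277 CPM, their OPC list at 6194 against 5033 CPM and their oligodendrocyte list at 71.6 against 155 CPM. Their median depth before thinning was 10800 against 14199.5 UMIs, and 65.6% against 11.1% of them had Y-linked UMIs. The part of these differences in co-detection was not tested. Within cluster 3 the neuron list was at 787 CPM in the 545 nuclei with both, 695 CPM in the 565 with 1 of them and 513 CPM in the 200 with neither. *Tafa5* was at 291, 296 and 295 CPM in these groups of cluster 3, and *Tafa4* at 234, 258 and 265 CPM.

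The nuclei were also split by sex-linked transcripts, since the pups were of either sex. After thinning, 1667 nuclei had UMIs of the Y-linked genes *Ddx3y*, *Eif2s3y*, *Kdm5d* or *Uty* and none of *Xist*, 1903 had UMIs of *Xist*, the RNA that silences an X chromosome, and none of the Y-linked genes, 5102 had neither and 88 had both. Thinning served to class the nuclei, and the levels in the classes used all their UMIs. *Tafa1* was at 148 CPM (143–153) in the Y-linked nuclei and 11.6 CPM (10.3–12.9) in the *Xist* nuclei, a ratio of 12.8 (11.4–14.4). *Tafa2* was at 231 and 18.8 CPM, a ratio of 12.3 (11.3–13.5). *Tafa4* was at 181 and 62.5 CPM, a ratio of 2.90 (2.74–3.06). *Tafa5* was at 318 and 194 CPM, a ratio of 1.64 (1.58–1.70). In the 5102 nuclei with neither, *Tafa1* was at 29.5 CPM and *Tafa2* at 53.5 CPM, between the other classes. *Tafa4* at 281 CPM (277–284) and *Tafa5* at 340 CPM (336–343) were higher there than in the Y-linked nuclei. Of all 14531 genes, 9.56% were at least 2 times as high in the Y-linked nuclei, as *Tafa1*, *Tafa2* and *Tafa4* were.

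These classes were unevenly spread over the clusters. Cluster 3 was 67.9% Y-linked and 0.992% *Xist* nuclei, and cluster 1 was 0.294% Y-linked and 91.8% *Xist* nuclei. In clusters 2, 4, 6 and 7, 93.0% to 96.4% of the nuclei had neither, so the ratios say little about them. Without cluster 3 the ratio was 3.14 for *Tafa1*, 3.95 for *Tafa2*, 2.12 for *Tafa4* and 1.73 for *Tafa5*. Without clusters 1 and 3, a choice made after these values were seen, it was 1.36 (1.14–1.62) for *Tafa1*, 1.74 (1.52–1.99) for *Tafa2* and 1.20 (1.14–1.26) for *Tafa5*, and *Tafa4* turned to 0.684 (0.637–0.734). The level of *Tafa1* in Y-linked nuclei differed by cluster, at 17.2 CPM (14.3–20.5) in the 534 of cluster 0 and 280.0 CPM (270.3–290) in the 890 of cluster 3.

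Within cluster 5, which held 131 Y-linked and 237 *Xist* nuclei, *Tafa1* was at 66.5 and 26.7 CPM and *Tafa2* at 111 and 42.3 CPM, ratios of 2.50 (2.05–3.04) and 2.63 (2.26–3.08). *Tafa4* and *Tafa5* were at 1.12 (1.02–1.23) and 1.20 (1.11–1.29) there. Cluster 5 was also the cluster with high doublet scores, and 5.24% of its nuclei had both Y-linked and *Xist* UMIs, against at most 2.11% in the others. The part of doublets in its ratios was not tested. In cluster 0, with 534 and 34 nuclei, the ratio was 1.16 (0.571–2.75) for *Tafa1* and 1.68 (1.02–2.97) for *Tafa2*, and *Tafa4* was at 54.6 and 124 CPM, a ratio of 0.440 (0.339–0.579). In cluster 3 the 13 *Xist* nuclei had *Tafa1* at 119 CPM (78.0–175) and *Tafa2* at 225 CPM (166–297). Each was above the level of that gene in every other cluster, but below that of the 890 Y-linked nuclei of cluster 3. The ratio of Y-linked to *Xist* nuclei there was 2.35 (1.60–3.60) for *Tafa1* and 1.87 (1.41–2.53) for *Tafa2*. It was 0.775 (0.609–1.00) for *Tafa4* and 1.29 (0.979–1.75) for *Tafa5*. The fine group of 118 nuclei in cluster 3 was 5.98% Y-linked and 0.855% *Xist*, against 72.1% to 75.2% Y-linked in the other 3. It had *Tafa1* at 171 CPM, against 132 to 320 CPM in the other 3, and *Tafa2* at 491 CPM, against 147 to 541 CPM. The part of the sex-linked class in these levels was not tested.

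**Figure D5:**
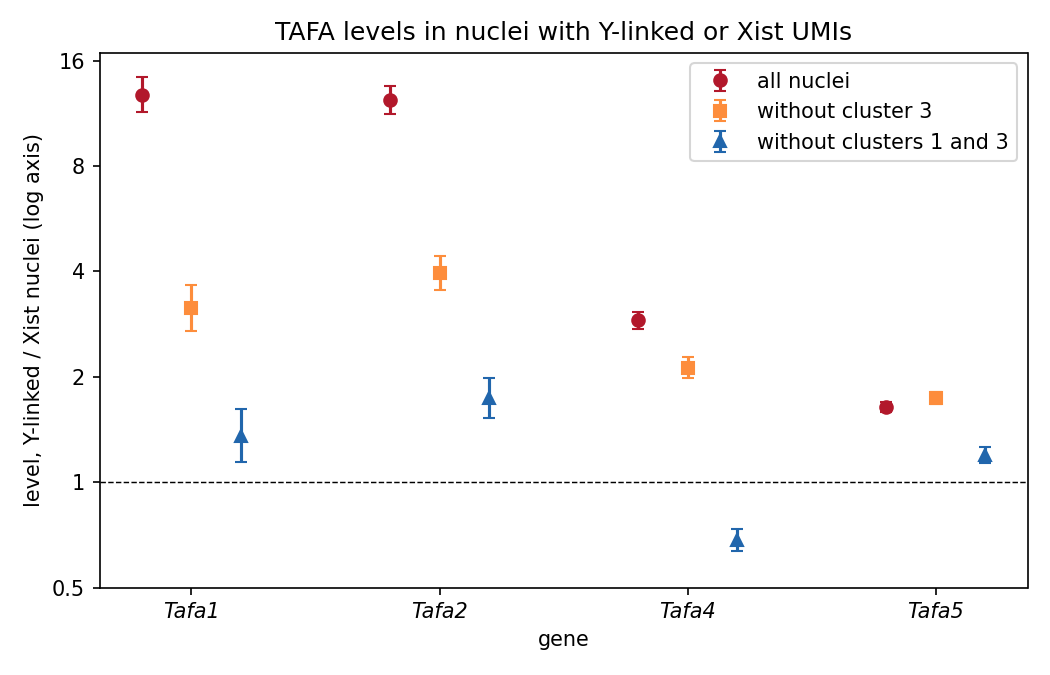
Level in nuclei with Y-linked UMIs over the level in nuclei with *Xist* UMIs (y axis, log scale) for 4 TAFA genes (x axis). Ratios are shown for all nuclei classed, without cluster 3 and without clusters 1 and 3, with exact 95% intervals. Nuclei were classed after thinning, and the levels used all their UMIs. The ratios of *Tafa1* and *Tafa2* are 12.8 and 12.3 in all nuclei and 1.36 and 1.74 without clusters 1 and 3, and *Tafa4* passes from 2.90 to 0.684. Without clusters 1 and 3, most Y-linked nuclei are in cluster 0 and most *Xist* nuclei in cluster 5.

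By cell cycle phase, called from S and G2/M gene scores, *Tafa2* was lowest in G2/M. It was at 95.2 CPM in G1 nuclei, 102 in S and 59.6 in G2/M, or 0.606 of the other nuclei (0.583–0.630) in G2/M. The G2/M ratio of *Tafa2* was 0.596 (0.567–0.626) within cluster 3 and 0.704 (0.662–0.750) outside it. *Tafa1* was at 0.785 (0.748–0.824) in G2/M, 0.798 within cluster 3 and 0.892 outside it. *Tafa4* was at 264, 178 and 212 CPM in G1, S and G2/M, and at 262, 171 and 208 CPM outside cluster 3. *Tafa5* was at 329, 318 and 288 CPM. Phase and cluster moved together, since 93.7% of cluster 4 was called G2/M and 66.6% of cluster 2 was called G1, and the part of each was not tested.

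The genes most like each member were taken by Pearson correlation of log-normalized values over the 8917 nuclei, among 10079 genes with at least 1000 UMIs. All these values come from the same library, so they are a description with no test. *Tafa2* was the most like *Tafa1*, with an r of 0.49, and the reverse. After it, *Tafa1* was most like *Sntg1* (0.45), which encodes a syntrophin, *Lrrc4c* (0.43), a ligand of netrin-G, *Marchf1* (0.42), a ubiquitin ligase, and *Lrp1b* (0.42) of the LDL receptor family. *Tafa2* was, after *Tafa1*, most like *Marchf1* (0.45), *Sntg1* (0.45), *Lrp1b* (0.44) and *Srgap1* (0.41), a GTPase-activating protein of Slit and Robo signaling. Of the 5 genes most like each, *Sntg1*, *Marchf1* and *Lrp1b* were on both lists.

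*Tafa4* was most like *Col11a1*, a collagen chain, and *Dcc*, a netrin receptor, both at an r of 0.44, followed by the growth factor gene *Ptn* (0.44), *Anks1b* (0.42) and *Fam135b* (0.41). *Tafa5* was most like *Cntn1* (0.40), a cell adhesion gene of the contactin family, followed by *Dcc* (0.37), *Pcdh15* (0.37), *Sox6* (0.36) and *Lhfpl3* (0.34), of which *Lhfpl3* is on the OPC list. *Tafa3* reached no more than 0.0845 with any gene. *Tafa4* and *Tafa5* had an r of 0.23 with each other.

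The likeness of *Tafa1* and *Tafa2* was lower without cluster 3, which held 68.7% and 62.9% of their UMIs and led to the choice of the family. The fall is therefore a description. Without it the highest r of *Tafa1* or *Tafa2* with any gene was 0.21, which they still had with each other. The highest r of *Tafa4* without its top cluster 2 was 0.43, and of *Tafa5* 0.40. Cluster 2 held only 26.8% and 18.0% of the UMIs of these genes, so leaving it out is a smaller change. Within cluster 3 the r of *Tafa1* with *Tafa2* was 0.17 over 1338 nuclei. After thinning it was 0.41 over all nuclei. By a choice made after the values were seen, the genes least alike are named too. *Tafa1* and *Tafa2* had their lowest r with the mitochondrial gene *mt-Nd3*, at -0.38 each, and *Tafa4* and *Tafa5* theirs with *Igfbp2*, at -0.38 and -0.36. The 50 genes most like *Tafa1*, *Tafa2*, *Tafa4* and *Tafa5* had median spans of 198, 232, 299 and 471 kb, against 32.3 kb over all candidates.

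Proteins described to bind TAFA proteins were listed with the members. Of the neurexin genes, *Nrxn3* was at 206 CPM (204–209) and *Nrxn2* at 83.8 CPM (82.3–85.3). Their spans are 1612 and 125 kb, and per kb of span the order was reversed, at 0.128 and 0.668 CPM. *Nrxn2* was highest in cluster 1, at 174 CPM, where the levels of all 4 members were lowest. *Nrxn3* had its peak of 933 CPM in cluster 7, followed by 430 CPM in cluster 3.

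The adhesion gene *Lrrc4b* was at 67.9 CPM and ran from 57.2 to 79.1 CPM across clusters. *Lrp1*, a scavenger receptor, was at 60.0 CPM and highest in cluster 3, at 104 CPM. The sphingosine-1-phosphate receptor gene *S1pr2* was at 18.7 CPM, with its lowest level of 6.23 CPM in cluster 1 and its highest of 29.7 CPM in cluster 4. *Cmklr2*, a chemerin receptor gene, had 21 UMIs and the formyl peptide receptor gene *Fpr1* had 16 in all nuclei. Per kb of span, *Nrxn2* was at 0.668 CPM, between *Tafa4* at 0.875 CPM and *Tafa2* at 0.164 CPM. *Nrxn3*, at 0.128 CPM per kb, was between *Tafa2* and *Tafa1*, the latter at 0.0870 CPM.

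Near the lower cutoff on detected genes *Tafa1* and *Tafa2* were higher inside than outside, and near the upper cutoff *Tafa4* was. In the 164 nuclei just inside the lower cutoff, with 2000 to 2499 genes, *Tafa1* was at 104 CPM, *Tafa2* at 193, *Tafa4* at 190 and *Tafa5* at 286. In the 207 barcodes just outside, with 1500 to 1999 genes, they were at 38.2, 67.7, 229 and 291 CPM, and *Tafa3* was at 0 in both. Mitochondrial UMIs were 11.4% just inside and 15.9% just outside. In the 228 nuclei with 7501 to 8000 genes they were at 49.6, 77.2, 251 (241–262) and 300.5 CPM, and in the 122 barcodes with 8001 to 8500 genes at 44.5, 78.2, 223 (211–235) and 297 CPM.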

How the data were processed

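Cultured BB-p53n OPCs were measured as nuclei in 1 library of a 10x Genomics 3′ gene expression kit. The authors deposited a matrix of unnormalized UMI counts from Cell Ranger 8.0.1 with the mm39 reference, before their cutoffs on detected genes. Barcodes with 2000 to 8000 detected genes were kept (8917 of 10047). Nuclei were clustered with Seurat 5.3.0 and the settings of the study's methods (scale factor 1000, total counts regressed out of 3000 variable genes, the first 20 principal components, 200 neighbors, resolution 1), and phases were called with its 43 S and 54 G2/M genes. No mitochondrial filter was applied, although the study lists fewer nuclei than its cutoffs leave. A limit of 5% mitochondrial UMIs left 1954 nuclei, the same number as listed, and was an alternative. Scrublet in scanpy 1.11.5 called 0 of 8917 nuclei as doublets, so its calls were not used, and the 8% with the highest scores were left out as an alternative. There was no other library to share barcodes with.

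Levels were summed UMIs per 1000000 with exact Poisson intervals, ratios of levels had exact conditional binomial intervals, and shares Clopper-Pearson intervals. Co-detection ratios had the Clopper-Pearson interval of the number of nuclei with both genes, over an expected number taken as fixed. PCR and free RNA are not covered by these intervals. For shares, co-detection and sex-linked classes, nuclei were thinned to 5000 UMIs. Levels in the sex-linked classes used all UMIs of their nuclei. A ratio of at least 2 or at most 0.5 was counted for genes with at least 100 UMIs. No test across samples was possible with 1 library. The calculations were tested on simulated counts. Gene positions came from GENCODE, which matched 33185 of 33696 genes by identifier, and promoters from RefSeq. Named were the 5 members, a list of binding partners, and up to 5 genes per member with the highest correlation (at least 0.2, genes with at least 1000 UMIs). Some results of the partner list are not reported here. The members and lists were chosen with earlier results of these data known.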

Additional observations from a re-analysis of the deposited data

Results flagged for a closer look

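The barcodes outside the cutoffs on detected genes entered no comparison, and all 4 measurable members were present there above the level that 3 counts allow. In the 918 barcodes with fewer than 2000 genes, *Tafa1* was at 72.3 CPM (60.2–86.0), *Tafa2* at 96.7 CPM (82.7–112), *Tafa4* at 204 CPM (184–227) and *Tafa5* at 290.2 CPM (266–317). Mitochondrial UMIs made up 19.5% of the UMIs of these barcodes, against 6.34% in the kept nuclei. The levels of *Tafa1* and *Tafa2* were above those of the kept nuclei, at 47.5 and 78.4 CPM. *Tafa3* had 0 UMIs in them, which allows up to 1.71 CPM.

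In the 212 barcodes with more than 8000 genes, *Tafa1* was at 42.2 CPM (38.6–46.2), *Tafa2* at 80.2 CPM (75.1–85.6), *Tafa4* at 215 CPM (207–224) and *Tafa5* at 286 CPM (276–296). *Tafa3* had 1 UMI.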

How the results depend on the processing

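Of the 188 alternative values computed, 106 stayed within the counting interval, 81 moved beyond it and 1 turned its direction beyond it. *Tafa4* in Y-linked over *Xist* nuclei went from 2.90 to 0.684 without clusters 1 and 3, which was tried after the data were seen, and was 2.12 without cluster 3. Under the same settings *Tafa1* was at 1.36 and 3.14, *Tafa2* at 1.74 and 3.95, and *Tafa5* at 1.20 and 1.73. Without clusters 1 and 3 most Y-linked nuclei were in cluster 0 and most *Xist* nuclei in cluster 5. With classes from all UMIs *Tafa1* was at 15.1 and *Tafa2* at 15.4. The co-detection ratio of *Tafa1* with *Tafa2*, 2.87 with the main settings, was 2.10 without thinning, 5.04 with 2 UMIs as the limit of detection, 2.59 within depth classes, 2.12 at no more than 5% mitochondrial UMIs and 1.11 within clusters. With 2 UMIs the ratio was 1.09 for *Tafa1* and *Tafa5*, 1.10 for *Tafa2* and *Tafa4* and 1.22 for *Tafa4* and *Tafa5*. Within clusters it was 1.01 for *Tafa1* and *Tafa4*, 0.994 for *Tafa2* and *Tafa4* and 1.00 for *Tafa4* and *Tafa5*. At no more than 5% mitochondrial UMIs it was 1.42 for *Tafa1* and *Tafa4* and 1.03 for *Tafa4* and *Tafa5*, and thinned to 3000 UMIs 1.11 for *Tafa4* and *Tafa5*.

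The ratio of the highest cluster to all other nuclei became, with 20 neighbors, 9.30 for *Tafa1*, 8.93 for *Tafa2* and 2.12 for *Tafa4*, and that of the lowest cluster 0.0828 for *Tafa1*, 0.0743 for *Tafa2*, 0.0155 for *Tafa4* and 0.435 for *Tafa5*. At resolution 0.4 the highest ratio of *Tafa2* was 11.8. When only the 1954 nuclei with at most 5% mitochondrial UMIs were clustered, the highest ratios were 8.22, 7.72, 2.64 and 1.15 for *Tafa1*, *Tafa2*, *Tafa4* and *Tafa5*, and the lowest 0.131, 0.113 and 0.502 for *Tafa2*, *Tafa4* and *Tafa5*. The cluster highest in *Tafa4* then shared only 102 nuclei with cluster 2. *Tafa1* and *Tafa2* themselves were at 87.3 and 138 CPM in these 1954 nuclei, against 47.5 and 78.4 CPM, and the cause was not tested. Without cluster 3 the phase ratios of *Tafa1* were 1.18 in G1, 0.974 in S and 0.892 in G2/M, and those of *Tafa2* 1.23 in S and 0.704 in G2/M. The 0.994 and 0.974 above lie just below 1 where the main ratios, 1.21 and 1.29, were above it. Pairs with *Tafa3* gave no value where no nucleus passed the limit. No paired analysis was possible because 1 library was analysed.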
